A study of Mus musculus with 9 samples.

Results

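The genes described here are 10 genes of fatty acid synthesis and desaturation, measured by RNA-seq in murine BMDC, the dendritic cells that bone marrow yields in culture and that present antigen to T cells. They were chosen by name, with earlier results of these data known. Each was represented by 1 row of estimated counts, the row with the most counts for its symbol. In all, 37776 rows matched a single gene. All 10 passed the filter on low counts. The series held 9 libraries, 3 of untreated cells, 3 of cells exposed to lysophosphatidic acid (LPA) for 2 h and 3 of cells exposed for 6 h. LPA is a small lipid whose receptors on the cell surface couple to G proteins, and the series title places the work in ovarian cancer and type I interferon responses. The labels leave out mouse strain, age and genotype, how much LPA was given and in which vehicle, and how long the untreated cells were cultured, so exposure to LPA and any difference in culture time or handling cannot be told apart. The labels name replicates by number only and do not state their origin (animal or culture), so p-values measure the spread between these libraries, which may be technical.

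Cells make fatty acids from cytosolic citrate. Acly (ATP citrate lyase) cleaves citrate to acetyl-CoA, Acaca (acetyl-CoA carboxylase 1) turns it into malonyl-CoA, and Fasn (fatty acid synthase) joins these units into palmitate. Elovl6 then lengthens palmitate and other saturated and monounsaturated chains, while Elovl5 lengthens polyunsaturated ones. Scd1 and Scd2 are stearoyl-CoA desaturases, which place the double bond of oleate and palmitoleate, and Fads1 and Fads2 are the delta-5 and delta-6 desaturases of polyunsaturated fatty acid synthesis. Srebf1 encodes SREBP-1, a membrane-bound transcription factor that is released by cleavage and is known to drive these genes, and its own gene is a known target of the oxysterol receptors LXR. Long-chain desaturated products are components of membranes and precursors of lipid mediators in myeloid cells.

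Total estimated counts ran from 29628817 to 84596899 per library. Dendritic cell markers were present, with 6 of 6 listed genes over the filter, among them Itgax, which encodes CD11c, at 1361 ± 35.8 CPM (mean ± SD, n = 3; CPM are counts scaled to a common library size) in untreated cells. All 5 listed macrophage markers were over the filter as well, with summed levels of 2586 to 2651 CPM in untreated, 2816 to 2956 CPM in 2 h and 2840 to 2999 CPM in 6 h libraries, against 5419 to 6293, 5554 to 6183 and 4836 to 5271 CPM for the dendritic cell list. The macrophage sum was mostly Csf1r, at 2251 CPM in untreated, 2523 CPM in 2 h and 2629 CPM in 6 h libraries, and the members went different ways. At 6 h, against untreated cells, Mertk was at 102 against 61.2 CPM, Adgre1 at 121 against 161 CPM, C1qa at 80.9 against 111 CPM and Fcgr1 at 13.8 against 32.6 CPM. The dendritic cell sum was mostly Cd74, at 3597 CPM in untreated, 3645 CPM in 2 h and 3252 CPM in 6 h libraries. H2-Ab1 of that list was at 767.5 CPM in untreated, 800.8 CPM in 2 h and 653.2 CPM in 6 h libraries. Flt3 and Zbtb46 of that list were low, with Flt3 at 13.3 CPM and Zbtb46 between 15.75 and 19.79 CPM in untreated cells. Ciita was at 80.6 CPM in untreated, 22.1 CPM in 2 h and 18.4 CPM in 6 h libraries. The part of the markers of either list in the results below was not tested. None of 4 adipocyte markers passed the filter, and their summed level was at most 0.0652 CPM in any library, with Lep at 0 in all 9. Summed levels were at most 0.272 CPM for 4 stromal, 0.356 CPM for 3 T cell, 0.197 CPM for 3 B cell, 0.272 CPM for 3 erythroid and 3.54 CPM for 5 neutrophil markers. Replicate 2 at 2 h stood apart from its group on the first principal component of all genes (9.74, against -4.67 and -12.4 in the other 2 h libraries, with untreated libraries between -36.9 and -34.5 and 6 h libraries between 35.7 and 40.6). In 9 of the 10 genes it was also the 2 h library nearest to the 6 h mean. Without it the 8 calls at 2 h, and the 8 lower and 2 higher calls between the times, all passed the test; the values that moved most are given with each gene.

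In these bulk libraries fewer cells of one kind and less RNA per cell cannot be told apart. At 6 h all 10 genes were lower than in untreated cells and at 2 h 8 of the 10 were lower, and none was higher at either time. Among all 14363 tested rows, 25.7% were called lower and 26.4% higher at 6 h, and 19.2% lower and 19.3% higher at 2 h. Because the genes were chosen with earlier results of these data known, these counts are no test of the group. The genes did not follow one course. Fasn and Fads1 were lowest at 2 h and were higher at 6 h than at 2 h, whereas the other 8 were lower at 6 h than at 2 h, beside 24.3% of rows called higher and 24.4% called lower between the times. Scd2, the most abundant transcript of the group, had the largest estimated fall at 6 h. It was at 712 ± 50.1 CPM, against 1930 ± 69.8 CPM in untreated cells (mean ± SD, n = 3 each). Its log2 fold change (-1.44 ± 0.11, SE) was close to that of Elovl6 (-1.35 ± 0.13), and their difference was not tested.

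Stretches of promoter are shown for Fasn, which had the largest fall at 2 h, for Elovl5, which had the smallest change at 2 h, for Acly, the first enzyme of the chain, and for Srebf1, the regulator. Each is the 150 bases directly before an annotated start of transcription, written 5′ to 3′ on the strand of the gene, from RefSeq on GRCm38.p6. Capitals mark the NF-Y box CCAAT and the Sp1 box GGGCGG on either strand. Both are boxes of factors known to act beside SREBP. 
Fasn, chr11:120824548-120824697, minus strand: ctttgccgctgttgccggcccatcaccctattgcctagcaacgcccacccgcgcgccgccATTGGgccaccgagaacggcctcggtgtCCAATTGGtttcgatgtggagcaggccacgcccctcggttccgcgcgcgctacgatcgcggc
Elovl5, chr9:77917215-77917364, plus strand: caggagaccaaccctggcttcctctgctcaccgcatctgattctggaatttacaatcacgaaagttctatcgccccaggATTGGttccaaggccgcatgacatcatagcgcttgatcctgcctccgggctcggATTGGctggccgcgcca
Acly, chr11:100528001-100528150, minus strand: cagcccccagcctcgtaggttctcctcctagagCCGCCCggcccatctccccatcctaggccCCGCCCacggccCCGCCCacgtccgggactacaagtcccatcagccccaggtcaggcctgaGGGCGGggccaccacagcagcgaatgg
Srebf1, chr11:60210472-60210621, minus strand, the one of 3 annotated starts with the most matches: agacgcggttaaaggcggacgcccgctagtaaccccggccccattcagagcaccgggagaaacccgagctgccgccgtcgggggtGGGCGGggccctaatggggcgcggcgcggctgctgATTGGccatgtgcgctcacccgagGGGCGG

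The Fasn stretch held 3 matches to the NF-Y box, 2 of them overlapping on opposite strands, and the Elovl5 stretch held 2. The Acly stretch held 4 matches to the Sp1 box, and the Srebf1 stretch held 2 to the Sp1 box and 1 to the NF-Y box. Promoter windows were found for 7 of the 10 genes, 9 windows in all, counting 3 for Srebf1. In the 250 bases before the start, 4 of the 9 windows held an NF-Y box and 4 held an Sp1 box. Among all 32851 windows the shares were 33.8% and 32.7%, so both counts were near them. Srebf1 windows were among the 4 for each box, and the windows of Acaca and Elovl6 held neither box. The sterol regulatory element was searched as TCACNCCAC on both strands, and 0 of the 9 windows held it, against 1.05% of all windows. A match or its absence describes these letters in these windows and says nothing on binding.

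**Figure D1:**
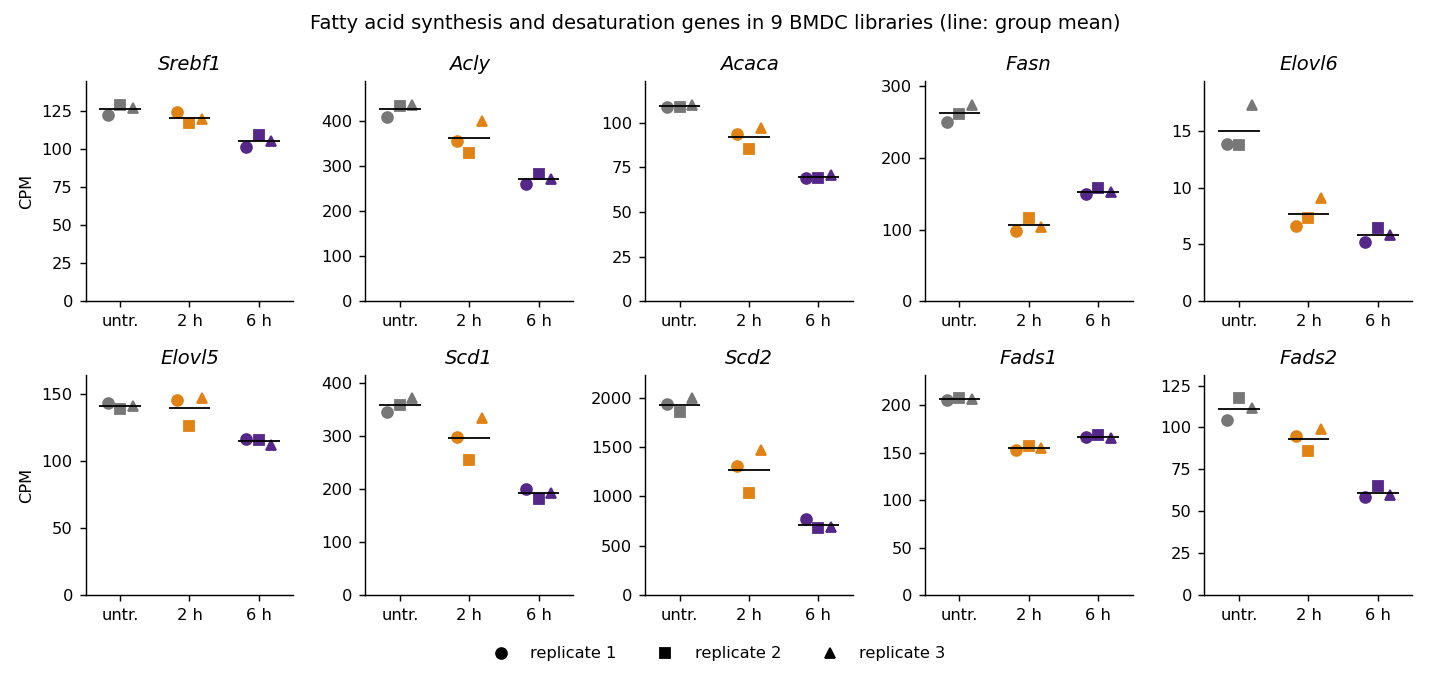
Level of each gene in CPM (vertical axes, from 0) in untreated cells and after 2 h and 6 h of LPA. Each symbol is 1 library, its shape gives the replicate number and the line is the group mean. Fasn and Fads1 have their lowest libraries at 2 h and the other 8 genes at 6 h, and Scd2 lies between 681 and 770 CPM at 6 h, against 1856 to 1994 CPM in untreated cells.

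The first question was what the regulator and the enzymes that build palmitate did. Srebf1 was at 122, 129 and 127 CPM in the 3 untreated libraries, at 124, 117 and 120 CPM at 2 h and at 101, 109 and 105 CPM at 6 h. The 2 h libraries overlapped the untreated ones and the 6 h libraries lay below all others. Its log2 fold change at 2 h was -0.07 ± 0.05 (SE), with a 95% interval of -0.16 to 0.03, and missed the threshold (adjusted p = 0.271). All such p-values are from the quasi-likelihood test of edgeR, adjusted by Benjamini-Hochberg over the 14363 rows. At 6 h it fell, with a log2 fold change of -0.26 ± 0.05 (adjusted p = 4.14e-04). The row pooled 12 transcripts of Srebf1 (chromosome 11, 60199089 to 60222581, GRCm38), so the forms SREBP-1a and SREBP-1c, which start at different exons, were not separated. The libraries were non-stranded, and 109 bases of Srebf1 exons lie opposite exons of Rai1, so reads from these bases cannot be assigned to one of the 2 genes.

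Acly was at 410, 434 and 436 CPM in untreated libraries, at 357, 329 and 399 CPM at 2 h and at 261, 284 and 271 CPM at 6 h. The 3 groups did not overlap. It fell at 2 h (log2 fold change -0.24 ± 0.06, adjusted p = 0.0111) and at 6 h (-0.65 ± 0.06, adjusted p = 5.48e-06). Without 2 h replicate 2 the change at 2 h was -0.17 and that between the times -0.48. Acaca, which makes malonyl-CoA, was at 109, 109 and 110 CPM untreated, at 93.7, 85.6 and 97.0 CPM at 2 h and at 69.2, 69.0 and 70.8 CPM at 6 h. Its groups were separate too, with changes of -0.25 ± 0.05 at 2 h (adjusted p = 0.00152) and -0.65 ± 0.05 at 6 h (adjusted p = 7.06e-07). Without 2 h replicate 2 the changes of Acaca were -0.20 at 2 h and -0.45 between the times. The estimates for Acly and Acaca lay within 1 SE of each other at both times; their difference was not tested.

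Fasn took another course. It was at 250, 262 and 274 CPM in untreated libraries, at 98.3, 117 and 103 CPM at 2 h and at 149, 158 and 152 CPM at 6 h. Every 2 h library lay below every 6 h library, and every 6 h library below every untreated one. At 2 h it was 2.47-fold lower (log2 fold change -1.30 ± 0.06, adjusted p = 4.78e-08), and 115 of the 14363 tested rows had a lower fold change. At 6 h it was 1.71-fold lower than in untreated cells (-0.78 ± 0.06, adjusted p = 1.04e-06). From 2 h to 6 h it rose by a log2 fold change of 0.53 ± 0.06 (adjusted p = 5.86e-05). Without replicate 2 at 2 h, which had the highest Fasn level of its group, the changes were -1.38 at 2 h and 0.60 between the times. The ratio of Fasn to Acaca counts per base of exon was 3.58, 3.76 and 3.88 in the untreated cells, 1.64, 2.12 and 1.66 after 2 h and 3.35, 3.57 and 3.35 after 6 h. It was thus lower in all 2 h libraries than in any other library, and at 6 h it was just below the untreated range.

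**Figure D2:**
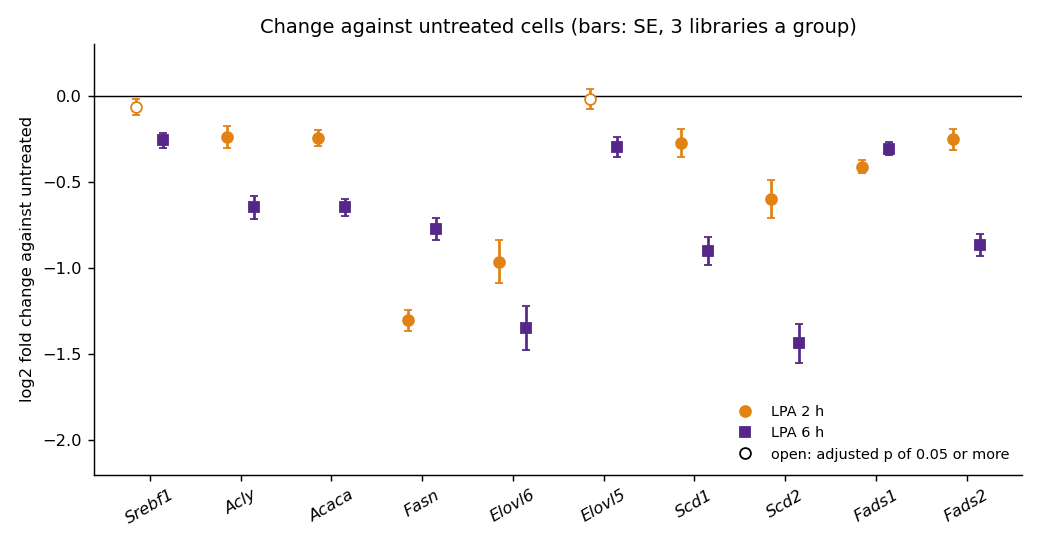
Log2 fold change against untreated cells (vertical axis) of the 10 genes at 2 h (circles) and 6 h (squares), with bars for the standard error; filled symbols passed the test at an adjusted p under 0.05. Fasn reaches -1.30 at 2 h and -0.78 at 6 h, whereas Scd2 goes on to -1.44 and Elovl6 to -1.35 at 6 h; Srebf1 and Elovl5 are open at 2 h.

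The elongases differed from each other. Elovl6, which lengthens palmitate, was the least abundant gene of the group, at 13.8, 13.7 and 17.3 CPM untreated, 6.67, 7.32 and 9.05 CPM at 2 h and 5.19, 6.43 and 5.84 CPM at 6 h. The groups did not overlap, although the lowest 2 h library was close to the highest 6 h one. It fell at 2 h (log2 fold change -0.96 ± 0.12, adjusted p = 1.05e-04) and at 6 h (-1.35 ± 0.13, adjusted p = 6.25e-06), when it was 2.55-fold lower than in untreated cells. From 2 h to 6 h it fell by 0.38 ± 0.13 (adjusted p = 0.0309), a call that was lost in 5 of 18 other settings. These were total-count scaling, limma-voom and leaving out 2 h replicate 3 (-0.26), 6 h replicate 1 (-0.33) or 6 h replicate 3 (-0.38). In Elovl6 34 exon bases overlap the antisense gene Gm35986.

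Elovl5, which acts on polyunsaturated chains, was at 144, 139 and 141 CPM untreated, at 145, 126 and 147 CPM at 2 h and at 116, 116 and 112 CPM at 6 h. The 2 h libraries spanned the untreated ones. Its change at 2 h was -0.02 ± 0.06, with a 95% interval of -0.14 to 0.10 (adjusted p = 0.82), and without 2 h replicate 2 it was 0.05, with -0.35 between the times. At 6 h it fell, by -0.30 ± 0.06 on the log2 scale (adjusted p = 7.41e-04). Per base of exon, counts of Elovl5 were 14.9 to 19.0 times those of Elovl6 in untreated libraries, 29.6 to 39.8 times at 2 h and 32.9 to 40.8 times at 6 h. The ratio was therefore higher in all 6 LPA libraries than in the 3 untreated ones.

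Scd2 had the most counts of the 10 genes in each of the 9 libraries. It was at 1941, 1856 and 1994 CPM in untreated libraries, at 1314, 1034 and 1468 CPM at 2 h and at 770, 681 and 686 CPM at 6 h. The groups did not overlap, and replicate 2 was the lowest of the 2 h libraries. The fall was -0.60 ± 0.11 at 2 h (adjusted p = 0.00189) and -1.44 ± 0.11 at 6 h (adjusted p = 4.63e-06), a 2.71-fold lower level. Without 2 h replicate 2 the change at 2 h was -0.47 and that between the times -0.97. Scd2 ranked 40 among the tested rows by mean CPM in untreated cells and 136 at 6 h, and between these groups its mean fell by 1218 CPM, a decrease that ranked 6 among all rows. It made up 51.2 to 53.3% of the summed counts of the 10 genes in untreated libraries, 44.7 to 50.1% at 2 h and 37.0 to 40.6% at 6 h. The summed level of the other 9 genes was also lower, at 1703 to 1795 CPM untreated, 1280 to 1463 CPM at 2 h and 1128 to 1157 CPM at 6 h.

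Scd1 was at 345, 358 and 371 CPM in untreated libraries, at 298, 256 and 334 CPM at 2 h and at 201, 182 and 193 CPM at 6 h. The groups were separate, but replicate 2 widened the 2 h group. Its change at 2 h was -0.28 ± 0.08 (adjusted p = 0.02), which missed the threshold without untreated replicate 2 (adjusted p = 0.0562), untreated replicate 3 (0.0707) or 2 h replicate 1 (0.053). Without 2 h replicate 2 it passed at -0.18 (adjusted p = 0.0252), and the change between the times was then -0.72. At 6 h Scd1 fell by -0.90 ± 0.08 on the log2 scale (adjusted p = 5.41e-06). Counts per base of exon were 4.64 to 5.03 times higher for Scd2 than for Scd1 in untreated libraries, 3.62 to 3.94 times at 2 h and 3.18 to 3.43 times at 6 h, without overlap between the groups. Scd1 (chromosome 19, 44394455 to 44407879) and Scd2 (chromosome 19, 44293674 to 44306864) belong to a cluster of close copies, so the division of shared reads between them depends on the counting. Of the other copies, Scd3 had at most 7 counts in a library and Scd4 averaged 1.87 CPM in untreated cells.

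The polyunsaturated desaturases parted after 2 h. Fads1 was at 205, 207 and 207 CPM in untreated libraries, at 152, 157 and 155 CPM at 2 h and at 166, 168 and 166 CPM at 6 h. Its replicates were the closest of the group, and no library of one group reached into another. It fell at 2 h (-0.41 ± 0.04, adjusted p = 4.18e-06) and at 6 h (-0.31 ± 0.04, adjusted p = 2.59e-05). The rise from 2 h to 6 h was small, at 0.11 ± 0.04 (adjusted p = 0.0326). It missed the threshold in 7 of 18 other settings, in which adjusted p was as high as 0.11, and it kept its sign in all 18. Those 7 were testing without a filter, fitting only the 6 libraries compared, and leaving out untreated replicate 3, 2 h replicate 1 or any one of the 6 h libraries.

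Fads2 went on falling. It was at 105, 117 and 112 CPM in untreated libraries, at 95.1, 86.0 and 99.0 CPM at 2 h and at 58.5, 65.1 and 59.4 CPM at 6 h, with no overlap between groups. The changes were -0.25 ± 0.06 at 2 h (adjusted p = 0.00695) and -0.86 ± 0.06 at 6 h (adjusted p = 6.33e-07). Without 2 h replicate 2 they were -0.20 at 2 h and -0.67 between the times. The ratio of Fads1 to Fads2 counts per base of exon was 1.34, 1.21 and 1.27 in the untreated cells, 1.10, 1.25 and 1.07 after 2 h and 1.95, 1.77 and 1.91 after 6 h. It overlapped between untreated and 2 h libraries and was higher in every 6 h library. Both genes lie on chromosome 19, Fads1 at 10182888 to 10196877 on the plus strand and Fads2 at 10062765 to 10101746 on the minus strand.

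**Figure D3:**
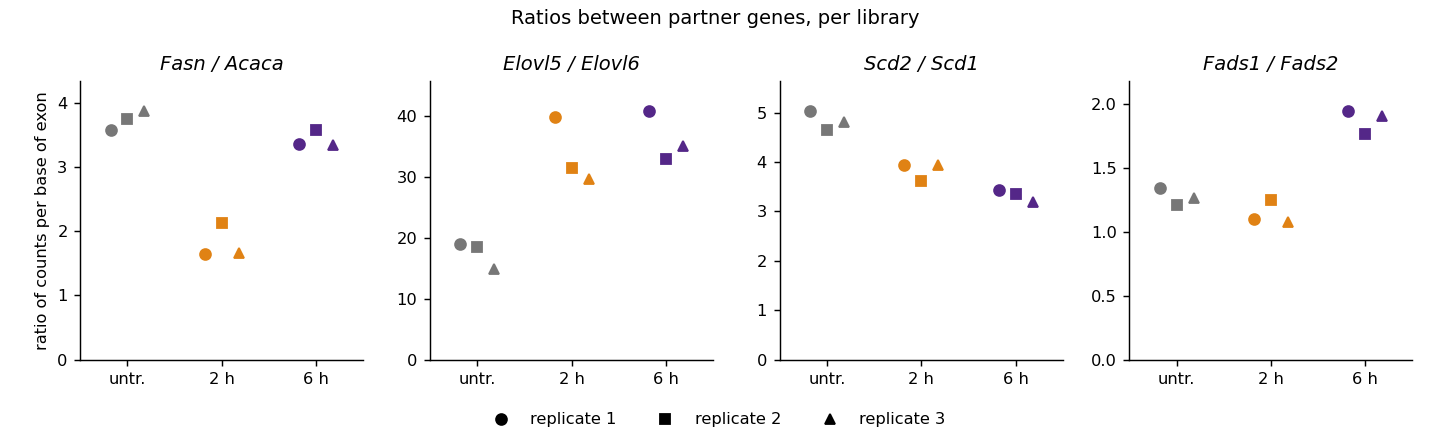
Ratio of counts per base of exon (vertical axes, from 0) between partner genes in each library of untreated cells and of cells after 2 h and 6 h of LPA; shapes give the replicate number. Fasn to Acaca is lowest at 2 h (1.64 to 2.12), Elovl5 to Elovl6 is higher in all LPA libraries, Scd2 to Scd1 is highest in untreated cells (4.64 to 5.03) and Fads1 to Fads2 is highest at 6 h (1.77 to 1.95).

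The median log2 fold change of the 10 genes was -0.27 at 2 h and -0.71 at 6 h, beside medians of 0.00 and 0.01 over all tested rows. Calls of at least a 2-fold fall comprised 1 of the 10 genes at 2 h (Fasn) and 2 at 6 h (Scd2 and Elovl6), beside 1.46% and 4.48% of all rows. The groups did not overlap for 8 of the 10 genes at 2 h and for all 10 at 6 h, all of them lower, beside 24% and 31% of all rows that were lower without overlap. Both comparisons share the untreated libraries. Between the times the groups did not overlap for any of the 10 genes, 8 lower and 2 higher at 6 h, beside 29.7% and 29.2% of all rows. Among the lower ones Acly (-0.41 ± 0.06), Acaca (-0.40 ± 0.05), Scd1 (-0.63 ± 0.08), Scd2 (-0.84 ± 0.11), Fads2 (-0.61 ± 0.06), Elovl5 (-0.28 ± 0.06) and Srebf1 (-0.19 ± 0.05) had adjusted p from 3.13e-05 to 0.00369.

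Levels were ordered per kilobase of exon, taking the union of annotated exons as the length. In untreated cells Scd2 led with 353 ± 12.8 CPM per kilobase (SD, n = 3). Acly followed with 80.8 ± 2.75, Scd1 with 73.2 ± 2.65, Fads1 with 42.9 ± 0.186, Elovl5 with 40.1 ± 0.698 and Fads2 with 33.8 ± 1.92 CPM per kilobase. Fasn (23.9 ± 1.10) and Srebf1 (22.4 ± 0.639) overlapped, and Acaca (6.40 ± 0.0525) and Elovl6 (2.32 ± 0.318) came last. At 2 h Acly and Scd1 overlapped, and Fasn, at 9.68 ± 0.867 CPM per kilobase, was below Srebf1 at 21.4 ± 0.607. At 6 h Scd2 still led with 130 ± 9.17 CPM per kilobase, and Fads2 (18.5 ± 1.08) and Srebf1 (18.7 ± 0.726) overlapped. Union lengths overstate the length of genes with many transcripts, such as Acaca with 9 in its row, so these levels set against each other are approximate.

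The course of a gene over the 9 libraries was compared with that of 8399 other genes averaging at least 10 CPM, by the root mean square difference of log2 CPM after centring each gene on its mean. This was done for Scd2, Elovl6 and Fasn, the 3 with the widest range of group means. Nearest to Scd2 were Ifih1, which encodes the RNA sensor MDA5 (0.07), Herc6, an interferon-inducible gene (0.07), and Pgap1, an enzyme of GPI anchor remodelling (0.08). Ifih1 averaged 85.5 CPM in untreated, 55.6 CPM in 2 h and 29.6 CPM in 6 h libraries. Nearest to Fasn were the prostacyclin receptor gene Ptgir (0.09), the phospholipase gene Ddhd1 (0.10) and Tifab (0.12). Ddhd1 averaged 150.5 CPM in untreated, 64.0 CPM in 2 h and 84.6 CPM in 6 h libraries. Elovl6 had more distant neighbours, Tuba1b, a tubulin gene (0.13), Gdap10 (0.15) and Znfx1 (0.16). It was also the least abundant of the 3 genes, at 14.9 ± 2.04 CPM (mean ± SD) in untreated cells. The part of the spread between replicates in these distances was not tested.

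Related genes were examined as 4 lists with 45 genes, of which 39 passed the filter. The lists too were chosen with earlier results of these data known. At 2 h 14 of the 39 were lower and 5 higher than in untreated cells, beside 19.2% and 19.3% of all rows. At 6 h 19 were lower and 10 higher, beside 25.7% and 26.4% of all rows, so the count of higher genes was near the share over all rows. Between the times 12 were lower and 11 higher at 6 h, beside 24.4% and 24.3%. The counts of the single lists below stand against these same shares. Their median log2 fold change was -0.07 at 2 h and -0.19 at 6 h.

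In the list of substrate and NADPH supply, 4 of 10 tested genes were lower at 2 h, with 0 higher. At 6 h 6 were lower and 1 higher. The list also held genes of other roles, among them Mid1ip1 and Aacs, which were both among those lower at 2 h. Me1, the malic enzyme that makes NADPH in the cytosol, fell at 2 h (log2 fold change -0.278 ± 0.085, adjusted p = 0.0218). At 6 h it was at 15.6 ± 0.949 CPM, against 33.0 ± 0.823 CPM in untreated cells. That was a log2 fold change of -1.08 ± 0.09 (adjusted p = 1.52e-06). The pentose phosphate dehydrogenases G6pdx (-0.81 ± 0.06) and Pgd (-0.62 ± 0.06), both NADPH sources, fell at 6 h. At 2 h these 2 genes had values of -0.16 ± 0.06 and -0.07 ± 0.06 that did not pass. Slc25a1, the mitochondrial citrate carrier, fell at both times (-0.16 ± 0.05 and -0.44 ± 0.05), and Acss2, which makes acetyl-CoA from acetate, fell at 6 h (-0.42 ± 0.05). Idh1, another NADPH source, was the 1 gene that rose at 6 h (0.19 ± 0.06). Mid1ip1, which promotes the assembly of acetyl-CoA carboxylase, was at 33.4 ± 4.44 CPM at 2 h, against 58.2 ± 3.55 CPM in untreated cells (-0.80 ± 0.09), and it rose from 2 h to 6 h by 0.58 ± 0.09. At 6 h against untreated it had a value of -0.21 ± 0.09 that did not pass (adjusted p = 0.0543). Aacs, a cytosolic acetoacetyl-CoA synthetase, fell at 2 h (-0.69 ± 0.05) and at 6 h (-0.57 ± 0.05).

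Of 14 other tested elongation and desaturation genes, 3 were lower and 1 higher at 2 h, where 19.2% of all rows were lower, a share near theirs. At 6 h 9 were lower and 2 higher, beside 25.7% and 26.4% of all rows. Elovl7, an elongase of saturated and polyunsaturated chains, rose at 6 h to 28.2 ± 1.46 CPM, against 13.4 ± 0.931 CPM in untreated cells (1.08 ± 0.09, adjusted p = 1.59e-06). Hsd17b12, the ketoacyl reductase of the elongation cycle, fell at 6 h (-0.58 ± 0.06). Of the low desaturase genes, Fads6 fell at 2 h (-0.80 ± 0.14) and at 6 h (-0.64 ± 0.14), and Scd4 fell at 6 h (-1.04 ± 0.20). The dehydratase genes Hacd1, Hacd2, Hacd3 and Hacd4 all fell at 6 h, from -0.13 ± 0.05 in Hacd3 to -0.81 ± 0.11 in Hacd4. Adjusted p was close to the threshold for Hacd1 (0.0459), Hacd3 (0.0441) and Hacd2 (0.0272), and was 1.74e-04 for Hacd4. Hacd4 also fell at 2 h (-0.35 ± 0.11, adjusted p = 0.0265). Of the genes that pass electrons to the desaturases, Cyb5a (-0.55 ± 0.06) and Cyb5b (-0.52 ± 0.05) fell at 6 h and Cyb5r3, the reductase, rose (0.35 ± 0.05). Cyb5b was lower at 2 h as well (-0.33 ± 0.05) and Cyb5r3 higher (0.22 ± 0.05). Cyb5a had a value of 0.06 ± 0.05 at 2 h that did not pass.

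Of 11 tested genes of SREBP processing and its upstream regulators, 5 were lower and 2 higher at 2 h, beside 19.2% and 19.3% of all rows, and 3 were lower and 5 higher at 6 h, beside 25.7% and 26.4%. The 2 higher at 2 h and the 3 lower at 6 h were near those shares. Srebf2, which encodes SREBP-2, fell at 2 h (-0.29 ± 0.06) and at 6 h (-0.37 ± 0.06). Scap, the escort of SREBP to the Golgi, was at 59.9 ± 0.745 CPM at 6 h, against 41.0 ± 1.19 CPM in untreated cells (0.55 ± 0.07). Insig1, which holds SREBP in the endoplasmic reticulum and is an SREBP target, fell at 6 h (-0.41 ± 0.06) and Insig2 rose (0.32 ± 0.06). Mbtps1, a protease that cleaves SREBP, fell at 2 h (-0.13 ± 0.04) and had a value of -0.08 ± 0.04 at 6 h that did not pass. The LXR-beta gene Nr1h2 rose at both times (0.29 ± 0.05 and 0.37 ± 0.05), and the LXR-alpha gene Nr1h3 fell at 2 h (-0.42 ± 0.12) and had a value of 0.10 ± 0.12 at 6 h that did not pass. Of the genes of their partners, the retinoid X receptors, Rxrb rose at both times (0.20 ± 0.07 and 0.55 ± 0.07), and Rxra fell at 2 h (-0.29 ± 0.05) and rose at 6 h (0.14 ± 0.05). Mlx, which encodes the partner of the sugar-responsive factor ChREBP, fell at both times (-0.44 ± 0.06 and -0.32 ± 0.06).

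The 4 other LXR target genes did not move together. Abca1, the cholesterol exporter, was at 728 ± 68.5 CPM at 2 h, against 391 ± 29.4 CPM in untreated cells (0.89 ± 0.08), and remained higher at 6 h (0.60 ± 0.08). Lpcat3, which puts polyunsaturated chains into phospholipids, rose at 2 h (0.25 ± 0.07) and at 6 h (0.71 ± 0.07). Mylip fell at both times (-0.25 ± 0.07 and -0.38 ± 0.07). Abcg1 fell at 2 h (-0.62 ± 0.10) and had a value of 0.08 ± 0.10 at 6 h that did not pass.

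**Figure D4:**
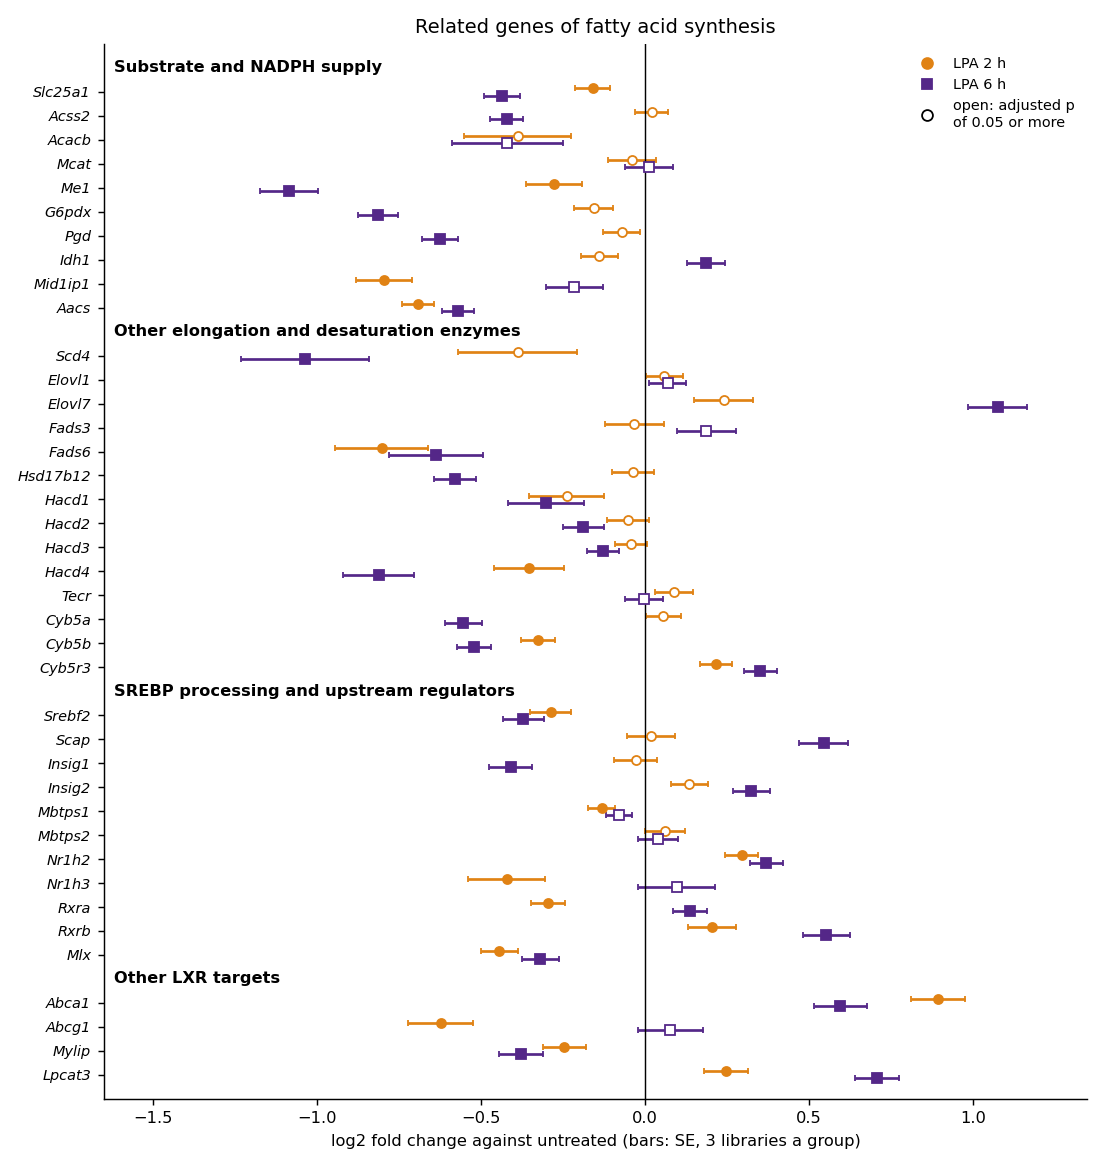
Log2 fold change against untreated cells (horizontal axis) of the 39 tested related genes at 2 h (circles) and 6 h (squares), grouped by list, with bars for the standard error; filled symbols passed the test. Me1 and G6pdx lie among the lowest at 6 h (-1.08 and -0.81), and Elovl7 (1.08) and Lpcat3 (0.71) among the highest.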

How the data were processed

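RNA-seq libraries were non-stranded TruSeq mRNA libraries, per the labels' protocols. The authors deposited 1 table of estimated counts, as whole numbers, without depth scaling. RSEM 1.2.3, DESeq2 and the build mm10 are named, per the submitters' processing notes. The aligner and annotation were not given in the sources used here. Rows are lists of Ensembl transcripts, matched here to GENCODE M21 (GRCm38): of 38887 rows, 37776 belonged to a single gene, with 98.46% of counts. The 10 genes, the related gene lists, the markers and the motifs were chosen with earlier results of these data known.

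The filter was filterByExpr at a minimum count of 10 and a total of 15; the 14363 rows it left were scaled with TMM (factors 0.974 to 1.03). All 9 libraries were fitted with edgeR 4.0.16 (R 4.3.3; glmQLFit with robust = TRUE, glmQLFTest), with a mean per group and no covariate. Adjusted p is Benjamini-Hochberg over all rows, with calls under 0.05. Standard errors are the absolute log2 fold change over the root of F, SD is over 3 libraries, and ratios between genes use raw counts per base of exon, with no test. Genes named were all 10 members, related genes chosen among those that passed the test against untreated at either time, and the 3 nearest genes by the rule given with them. The 6 untested related genes are named outside this rule, with counts only. Deviations from the group mean correlated at 0.144 to 0.178 between 6 h and untreated libraries of the same number. Libraries of different numbers were not compared in this way, so whether a number marks a pair was not settled. The main fit did not pair libraries. Chi-square per degree of freedom between replicates was 7.05 to 31.1, above sampling noise for every pair.

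The fit was tested on simulated data for 6 h against untreated (14363 genes). It recovered 73.1% of 67 genes changed 1.5-fold, 79.1% of 67 at 2-fold and 92.4% of 66 at 4-fold. Of its calls, 6.86% were unchanged genes. Far more rows were called in the real comparison, so these shares may not hold there. Changes under 1.5-fold were not simulated. Alternatives were DESeq2 size factors, total counts, DESeq2 1.42.0, limma-voom (limma 3.58.1), no filter, a filter on means under 10 counts, the replicate block, only the 6 libraries compared, summed rows of a gene, and leaving out each library.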

Additional observations from a re-analysis of the deposited data

Results flagged for a closer look

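The change against untreated cells differed between 6 h and 2 h, by the test of 6 h against 2 h, in all 10 genes. On the log2 scale the difference was 0.53 for Fasn and 0.11 for Fads1. It was -0.40 for Acaca, -0.41 for Acly, -0.63 for Scd1, -0.84 for Scd2, -0.28 for Elovl5, -0.38 for Elovl6, -0.61 for Fads2 and -0.19 for Srebf1. The values for Fads1 and Elovl6 missed the threshold in 7 and 5 of 18 other settings.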

How the results depend on the processing

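Over 18 other settings the 10 genes kept the direction of each called change. At 6 h against untreated all 10 calls held in every setting, and at 2 h only the call of Scd1 was ever lost. Between the times the number of higher genes was 1 in place of 2 with no filter and with only the 6 libraries compared, and 1 to 2 when a library was left out, since Fads1 missed the threshold; the cause was not tested. One value changed sign, that of Elovl5 at 2 h, which was not called and ran from -0.059 to 0.05 when a library was left out, the highest being without 2 h replicate 2. In the fit with a replicate block, 8 genes were lower at 2 h and 10 at 6 h, and between the times 8 were lower and 2 higher, so the block changed no call of the 10 genes. Among related genes it gave 15 lower and 5 higher at 2 h and 20 lower and 11 higher at 6 h. Other settings gave fewer calls in part. With no filter 11 related genes were lower and 7 higher at 2 h, and 16 lower and 10 higher at 6 h. Fitting only the 6 libraries compared gave 11 lower and 4 higher at 2 h, and 20 lower and 11 higher at 6 h. Total counts as scaling gave 15 lower and 4 higher at 2 h, and 16 lower and 10 higher at 6 h. Deviations of same-numbered libraries of 2 h and untreated cells correlated at 0.09 to 0.184, and those of 6 h and 2 h at 0.035 to 0.128. Whether these libraries are pairs was not settled either. With total counts as scaling, 3212 rows were lower and 4247 higher at 6 h, beside 3686 and 3786 with TMM, and 2912 and 4210 between the times, beside 3498 and 3493. Depth limits Elovl6, which had 158 to 907 counts in a library.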

Other observations

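Elovl3, an elongase of saturated and monounsaturated chains, was below the filter and was not tested. It had 2, 3 and 2 counts in untreated libraries, 14, 13 and 17 counts at 2 h and 2, 4 and 6 counts at 6 h, and was singled out after its values were seen. The other untested genes of the lists, Elovl2, Elovl4, Scd3, Thrsp and Mlxipl, had at most 12 counts in any library.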
